A study of Mus musculus with 2 samples.

Results

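Cells rich in transcripts of Hist1h2bc, which encodes a histone H2B, and Hist1h1c, which encodes a linker histone of the H1 family, were examined among mouse bone marrow cells profiled by 10x single-cell RNA-seq. Barcodes that reached 500 detected genes, and whose mitochondrially encoded genes gave no more than 10% of the UMIs (unique molecular identifiers, the counted molecules), were kept. A kept cell was a member when both histone genes together took at least 10 of every 10000 UMIs and 5 genes of mitosis, Ccnb1, Cenpf, Aspm, Ube2c and Hmmr, together took under 10 of every 10000. The members were thus chosen by their measured Hist1h2bc, Hist1h1c and mitotic transcript levels, and they numbered 515 of the 20241 kept cells. They were 329 of 10769 cells (3.06%, exact 95% interval 2.74 to 3.40) in the library labelled RUNX1 KO and 186 of 9472 cells (1.96%, 1.69 to 2.26) in the library labelled RUNX1 WT.

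The study sorted LSK CD150+ cells, which are lineage-negative and bear Sca-1, Kit and CD150, from a mouse model with loxP-flanked Runx1 alleles and Mx1-Cre, to set the make-up of this population without RUNX1 against that with it. Mx1-Cre is switched on by interferon signalling and acts in many blood and other cells. The animals' age, any interferon inducer, the number of animals per library and which of these alleles the WT mice carried are not given in the sources used here. Each genotype had a single library, with no biological replicate, so differences are described and not tested. Every interval is an exact one at 95% and covers counting error alone.

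In all, 120578398 UMIs from 11398 barcodes were counted in the KO-labelled library and 113732196 UMIs from 9969 barcodes in the WT library. The targeted gene, Runx1, did not read lower where the label says KO. Among the histone-rich cells it stood at 260 CPM (UMIs of the gene per 1000000 UMIs, summed over cells) in the KO-labelled library and 140 CPM in the WT library, a ratio of 1.86 (1.56 to 2.22). The counts come from 3′ tags, and tags outside the deleted part check nothing about the genotype, so directions are those of the library labelled KO. The libraries also differed in sex. Of the histone-rich cells, 261 of 329 in the KO-labelled library were female by Xist and 27 male by Y-linked genes, against 0 female and 114 male of 186 in the WT library. Genotype label, sex and library cannot be told apart in most cells. Values for male cells alone are given for some results only, chiefly where a sign changed, and rest on the 27 male KO-labelled cells. Most genes named between the libraries have no male value here, which does not mean that male cells were alike. The libraries shared 33 kept barcodes. Of these, 1 was a histone-rich cell in the KO-labelled library and 2 were in the WT library, and none was in both. Transcripts of the sorting markers were present in the histone-rich cells. Kit stood at 145 CPM in the KO-labelled and 191 CPM in the WT library, Ly6a (Sca-1) at 37.9 CPM in the KO-labelled and 35.4 CPM in the WT library, and Slamf1 (CD150) at 41.5 CPM in the KO-labelled and 24.5 CPM in the WT library.

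Histones package DNA into nucleosomes, and the linker histones bind where DNA enters and leaves the nucleosome and help compact chromatin. Most histone genes are transcribed in S phase to supply new chromatin, and their mRNAs end in a conserved stem loop instead of a poly(A) tail. Hist1h1c, Hist1h2bc and Hist1h2ac belong to a minority that also gives polyadenylated transcripts in cells that are not replicating DNA, and H1f0 is a replication-independent linker histone associated with differentiated and non-dividing cells. Libraries primed on poly(A) tails, such as these, read histone genes mainly through such polyadenylated forms.

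The stem loop regions are shown because the histone genes split by their annotated 3′ ends in the comparison that follows. Annotation is GENCODE M21 on GRCm38 (mm10), each line reads 5′ to 3′ on the transcript, and capitals mark a match to the 16-base histone stem loop motif on the transcript strand. The motif was present in 49 of 20983 protein-coding genes with an annotated 3′ UTR of 16 bases or more (0.234%) and in 44 of 67 genes named Hist (65.7%).
Hist1h1c: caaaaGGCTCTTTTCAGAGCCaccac
Hist1h2ac: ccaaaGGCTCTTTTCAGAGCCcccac
Hist1h1e: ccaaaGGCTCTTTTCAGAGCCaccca
Hist1h4i: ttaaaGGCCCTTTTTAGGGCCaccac
Hist1h2ae: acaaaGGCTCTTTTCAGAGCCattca
Hist1h4h: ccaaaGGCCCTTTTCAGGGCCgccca
Hist1h2ap: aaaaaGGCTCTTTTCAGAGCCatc
The loops are nearly alike, but the annotated transcripts run on for very different lengths past them. The transcript continued for 840 bases in Hist1h1c, 2010 in Hist1h2ac, 1153 in Hist1h1e, 330 in Hist1h4i and 151 in Hist1h2ae, against 46 in Hist1h4h and 3 in Hist1h2ap. Hist1h2bc (chr13:23684199-23692908, plus strand) had no match in its annotated transcript, which has 2 exons and a 3′ UTR of 742 bases. A gene was called long-ended with at least 100 annotated bases past the loop, or, without a loop, a 3′ UTR of at least 100 bases, a split chosen after values had been seen. By it 27 of the 67 Hist-named genes were long-ended and 40 short-ended.

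Hist1h2ac (chr13:23681467-23683948, minus strand), the histone gene that stood out beside the rule genes, lies head to head with Hist1h2bc, their start sites 251 bases apart. Hist1h1c (chr13:23738808-23740367, plus strand) starts 54609 bases from Hist1h2bc. The 250 bases before 2 of these starts are shown because the members of the neighbouring pair were high in the same cells. They are from RefSeq for GRCm38.p6, under the symbols H2ac6 and H1f2. Capitals mark matches on either strand to ATTTGCAT (the octamer of histone H2B promoters), to the CCAAT box, to the TATA box in the form TATAAA and to AAACACAA (a box known from H1 promoters). No matches overlap.
Hist1h2ac, chr13:23683960-23684209, minus strand: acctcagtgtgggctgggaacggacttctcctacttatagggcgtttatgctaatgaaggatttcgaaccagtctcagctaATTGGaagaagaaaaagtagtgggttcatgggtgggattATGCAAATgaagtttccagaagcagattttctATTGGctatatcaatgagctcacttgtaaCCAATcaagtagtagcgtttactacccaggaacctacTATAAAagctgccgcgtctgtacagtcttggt
Hist1h1c, chr13:23738557-23738806, plus strand: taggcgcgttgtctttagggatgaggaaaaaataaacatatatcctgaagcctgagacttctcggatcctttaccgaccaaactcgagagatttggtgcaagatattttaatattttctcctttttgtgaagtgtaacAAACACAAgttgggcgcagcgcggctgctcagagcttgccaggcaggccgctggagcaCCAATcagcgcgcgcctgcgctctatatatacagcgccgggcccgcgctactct
The stretch between Hist1h2ac and Hist1h2bc held the octamer 130 bases before the Hist1h2ac start, 3 CCAAT matches and 1 TATAAA match. The Hist1h1c stretch held 1 CCAAT match and AAACACAA. Among 32851 promoters of the same set, the octamer was present in 1.74%, CCAAT in 37.4%, TATAAA in 13.6% and AAACACAA in 1.93%. Those shares were scanned over whole promoter entries, which run on a short way past the start, and so cover more than the 250 bases shown. These matches are a description of the sequence and not binding sites.

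The pair that chose the cells was unevenly made up. Both genes had a UMI in 303 KO-labelled and 158 WT members, Hist1h2bc alone in 21 KO-labelled and 19 WT members, and Hist1h1c alone in 5 KO-labelled and 9 WT members. Hist1h2bc gave more UMIs than Hist1h1c in 234 KO-labelled and 131 WT cells, and fewer in 71 KO-labelled and 41 WT cells. The rule rested on few molecules per cell, with a median of 10 UMIs of the pair per KO-labelled member and 9 per WT member. As a description of the choice, with no test, Hist1h2bc stood at 1135 CPM in the histone-rich and 46.9 CPM in the other kept cells of the KO-labelled library, and at 984 CPM and 47.5 CPM in the WT library. Hist1h1c stood at 730 CPM and 121 CPM in the KO-labelled library, and at 525 CPM and 103 CPM in the WT library.

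The threshold cut through a continuous range. Just inside it, at 10 to 11 UMIs per 10000, lay 43 KO-labelled cells with a median of 10.6 and 38 WT cells with a median of 10.5. Just outside, at 9 to 10, lay 51 KO-labelled cells with a median of 9.43 and 37 WT cells with a median of 9.47. The median was 14.6 and the highest value 330 over KO-labelled members, with a median of 1.03 over the other kept cells. In the WT library the median was 14.3 and the highest value 37.4, with a median of 0.919 over the other kept cells. The limit on mitotic genes left out a further 46 KO-labelled and 23 WT cells that were as rich in the pair.

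Histone-rich cells were shallower than the rest. Their median was 6396 UMIs in the KO-labelled library against 9472 UMIs in the other kept cells, and 5856.5 against 9988 UMIs in the WT library. In the KO-labelled library their share was 10.8% of cells under 4000 UMIs, 6.76% at 4000 to 7000, 3.22% at 7000 to 10000, and 0.493% in both the 10000 to 15000 and the 15000 or more range. In the WT library it was 6.23%, 5.24%, 1.58%, 0.410% and 0.136% over the same ranges. The share was therefore lower in deeper cells, or level between the last ranges, in both libraries and was higher in the KO-labelled library in 5 of 5 ranges. Among male cells alone it was 2.77% (27 of 973) in the KO-labelled and 1.70% (114 of 6690) in the WT library. The rule is a rate over few UMIs, so counting error lets shallow cells reach it more readily. With all cells thinned to 3000 UMIs first, 514 KO-labelled and 330 WT cells met it, in place of 329 and 186. How far the difference in depth follows from the rule was not tested.

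Most histone-rich cells came from a few clusters. Cells were clustered without histone, ribosomal, mitochondrial and library-differing genes, and without Xist, Tsix and the Y-linked genes used to call sex. Clusters are numbered. Clusters 0, 2 and 11 held 252 of 329 KO-labelled members (76.6%), against 34.6% of the other cells of that library, and 134 of 186 WT members (72.0%), against 23.0%. Cluster 0 was haematopoietic stem cell-like (Procr, Ly6a, Hlf among its leading genes), and cluster 2, led by Gadd45g, Fam189b, Furin and F2r, stayed unnamed. The densest was cluster 11, also unnamed and led by Ccnb2, Ptms, Hmgn3 and Knstrn, where 90 of 334 KO-labelled cells (26.9%, 22.3 to 32.0) and 68 of 361 WT cells (18.8%, 14.9 to 23.3) were histone-rich. Cluster 11 also had Cenpa, Cdkn3 and Cdc20 among its leading genes. In its histone-rich cells a list of G2 and M phase genes, without the rule genes, summed to 6618 CPM (KO-labelled) and 5362 CPM (WT). In those of cluster 0 it summed to 2040 CPM (KO-labelled) and 1722 CPM (WT). Few histone-rich cells were in the clusters led in part by S phase genes or in the mitotic clusters 1 and 10. For the mitotic ones the rule itself limited the number, since Ccnb1, Cenpf, Aspm, Ube2c and Hmmr are all leading genes of cluster 1, and Cenpf and Aspm of cluster 10. Clusters 3, 5 and 6, led in part by S phase genes such as Ung, Hells, Mcm4 and Tyms, held 1 KO-labelled and 8 WT members, and clusters 1 and 10, led by mitotic genes, held 4 KO-labelled and 0 WT members.

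The libraries did not differ in 1 direction across clusters. The share was higher in the KO-labelled library in 3 of the 5 clusters with at least 15 members in each, namely 3.97% against 2.42% in cluster 0, 3.99% against 1.64% in the megakaryocyte-like cluster 4, and 26.9% against 18.8% in cluster 11. It was lower in the other 2, at 5.20% against 6.09% in cluster 2 and 2.98% against 4.67% in cluster 8 (led by Trib2 and Dnah12). Cluster 14, mast cell and basophil-like, held 7 histone-rich WT cells of 82 and had 0 cells in the KO-labelled library.

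**Figure D1:**
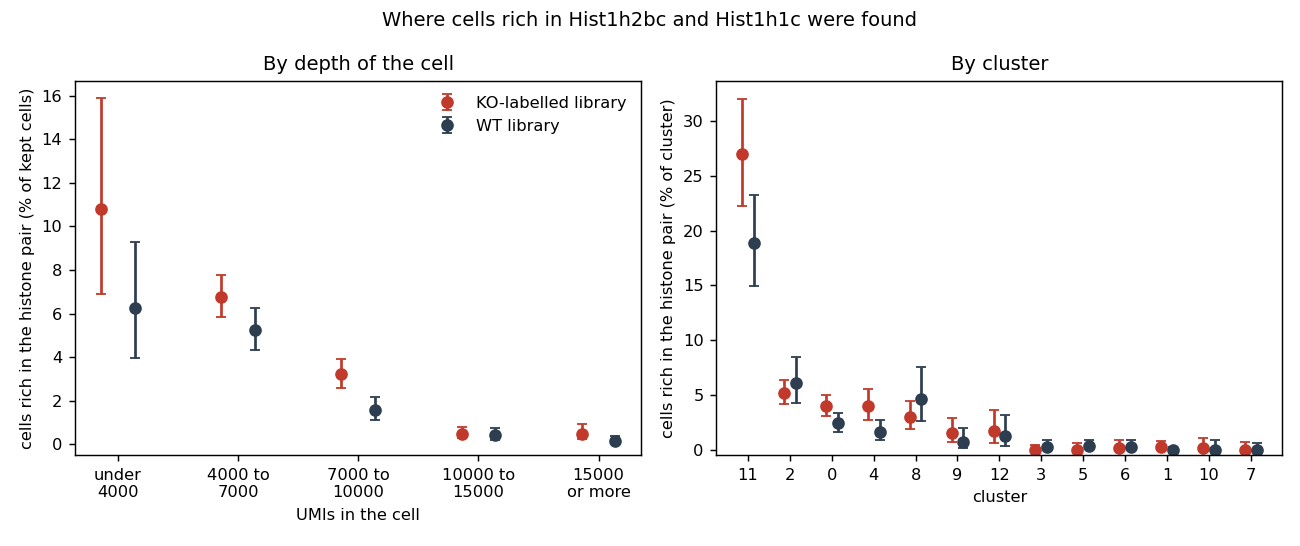
Share of kept cells that were rich in Hist1h2bc and Hist1h1c (y axis, %), by UMIs per cell (left) and by cluster (right), for the KO-labelled (red) and WT (dark) libraries, with bars for exact 95% intervals. The share fell from the shallowest to the deepest cells in both libraries, and cluster 11 had the highest share at 26.9% in the KO-labelled and 18.8% in the WT library.

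Histone-rich cells were set against all other kept cells of the same library over the genes that reached 20 CPM on either side in both libraries. Of 5730 genes, 133 (2.32%) exceeded the other cells by 1.5-fold or more in both libraries, and 435 (7.59%) fell short of them by 1.5-fold or more. The rule chose the cells on this contrast, so these values describe the cells and are no test. The median log2 ratio over all genes was 0.01 in the KO-labelled and -0.01 in the WT library. Depth differed between the sides, so the main patterns are also given among cells of 4000 to 7000 UMIs, within clusters or with clusters at equal weight.

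Against all other kept cells, the linker histones split by type. H1f0, the replication-independent H1 of differentiated cells, stood at 282 CPM in histone-rich and 104 CPM in other cells of the KO-labelled library, and at 223 CPM and 85.9 CPM in the WT library. The ratios were 2.72 (2.51 to 2.95) in the KO-labelled and 2.59 (2.29 to 2.93) in the WT library. H1fx, the other replication-independent member, stood at 336 CPM and 192 CPM in the KO-labelled library and at 456 CPM and 256 CPM in the WT library, ratios of 1.75 (KO-labelled) and 1.79 (WT). Both were thus higher in the histone-rich cells of each library, and both remained so among cells of 4000 to 7000 UMIs, where the log2 ratio of H1f0 was 1.42 in each library and that of H1fx 1.56 (KO-labelled) and 1.26 (WT). Within clusters 0, 2, 4, 8 and 11, H1fx was above 1 in 9 of 10 values (0.886 to 4.52), the exception being cluster 11 of the KO-labelled library, where histone-rich cells were most frequent.

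The replication-linked H1 genes were mostly level or lower against all other kept cells. Hist1h1d was 1.38-fold higher in the KO-labelled and 1.36-fold higher in the WT library, and Hist1h1e was level, at 413 CPM in histone-rich and 409 CPM in other cells of the KO-labelled library and 360 CPM on both sides in the WT library. Hist1h1b was at 252 CPM in histone-rich and 773 CPM in other cells of the KO-labelled library and at 227 CPM and 733 CPM in the WT library, ratios of 0.326 (KO-labelled) and 0.309 (WT). Hist1h1a had ratios of 0.411 (KO-labelled) and 0.510 (WT). Of the 6 linker histones measured besides Hist1h1c, 2 were thus 1.5-fold or more above the other cells in both libraries, and 2 were as far below. H1foo and H1fnt had 0 UMIs in histone-rich cells, and the testis gene Hist1h1t had a level of 0.441 CPM in the KO-labelled and 0 in the WT library.

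Among core histone genes, those at least 1.5-fold above all other kept cells in both libraries were long-ended. Hist1h2ac, which encodes an H2A, stood at 297 CPM in histone-rich and 93.1 CPM in other cells of the KO-labelled library, and at 185 CPM and 68.9 CPM in the WT library, ratios of 3.19 (2.95 to 3.45) in the KO-labelled and 2.68 (2.33 to 3.07) in the WT library. Hist1h4i, an H4 gene, had ratios of 2.56 (KO-labelled) and 1.70 (WT). Hist3h2a, an H2A gene outside the main cluster, had ratios of 3.27 (KO-labelled) and 1.52 (WT), and Hist1h2be, an H2B gene, of 1.74 (KO-labelled) and 1.92 (WT). Hist1h2be overlaps Hist1h1e in the annotation on the same strand, so its UMIs are uncertain.

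Of the 20 Hist-named genes at the floor, the 2 rule genes apart, 4 were 1.5-fold or more above the other cells in both libraries, and 11 were as far below. All 4 higher genes were among the 10 long-ended ones, which had a median log2 ratio of 0.63 in the KO-labelled and 0.47 in the WT library, with 3 lower (Hist1h2ae, Hist1h3e and Hist1h4d). Of the 10 short-ended genes 0 were higher in both libraries, 9 were lower and 8 were at least 1.5-fold lower, with medians of -1.31 (KO-labelled) and -1.44 (WT). Hist1h2ap, an H2A gene and the highest of them, was at 580 CPM in histone-rich and 1473 CPM in other cells of the KO-labelled library and at 418 CPM and 1272 CPM in the WT library. Hist1h3c, an H3 gene, had the lowest ratio in the KO-labelled library, 0.182, and 0.233 in the WT library, while Hist1h2ab, an H2A gene, had 0.263 (KO-labelled) and 0.264 (WT). Many of these genes have near-identical copies, between which UMIs could have been divided or lost in counting.

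**Figure D2:**
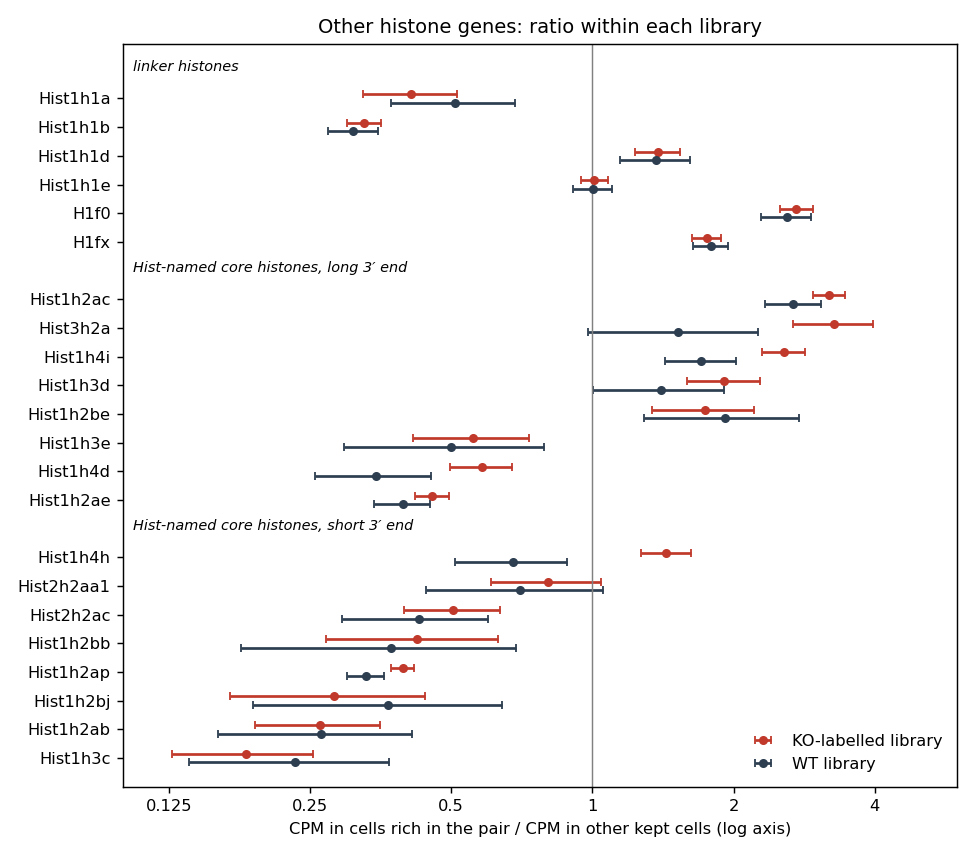
Ratio of summed CPM in histone-rich over other kept cells (x axis, log scale) for other histone genes, with exact 95% intervals, for the KO-labelled (red, upper) and WT (dark, lower) libraries. H1f0, H1fx and Hist1h2ac lie right of 1 in both libraries, while most short-ended genes, such as Hist1h2ap and Hist1h3c, lie left of 1.

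The low level of short-ended histones depended on the cells they were set against, and the reason was not tested. Within clusters 0, 2, 4, 8 and 11, which gives 10 values over both libraries, Hist1h2ap was above 1 in 8 of 10 (0.424 to 4.003), and Hist1h1b (0.134 to 4.47) and Hist1h1a (0.165 to 2.48) were above 1 in 8 of 10 as well. The values below 1 of Hist1h2ap and Hist1h1b were those of the megakaryocyte-like cluster 4. With clusters 0, 2 and 11 at equal weight the short-ended genes had a median log2 ratio of 1.02 in the KO-labelled and 0.69 in the WT library. Among cells of 4000 to 7000 UMIs the medians were 0.69 (KO-labelled) and 0.61 (WT). So the median of the short-ended genes was below that of all other cells, but not below that of cells of like depth or with these clusters at equal weight. The long-ended median lay between 0.24 and 1.23 (KO-labelled) and between 0.12 and 1.14 (WT) over all alternatives. Long-ended and short-ended genes thus lay closer together in these settings than against all other cells. Single genes differed at like depth, where the log2 ratio of Hist1h1b was 0.35 (KO-labelled) and -0.70 (WT), that of Hist1h2ab -0.93 (KO-labelled) and -0.77 (WT) and that of Hist1h3c -0.65 (KO-labelled) and -1.04 (WT).

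The long-ended genes Hist1h2ac and Hist1h4i, and H1f0, were higher in either comparison. Within clusters, Hist1h2ac was above 1 in 10 of 10 values (1.58 to 7.77), H1f0 in 10 of 10 (1.19 to 4.36) and Hist1h4i in 10 of 10 (1.38 to 21.6). Hist1h1e, level against all other cells, was above 1 in 10 of 10 (1.39 to 3.13), and Hist1h1d in 9 of 10 (0.687 to 4.25). The linker histones summed without Hist1h1c were at 1.21 to 3.70. Within clusters they thus mostly did not split by type as they did against all other cells. The 3 long-ended genes that were low against all other cells did turn, except Hist1h4d in the WT library. With equal cluster weights the log2 ratio of Hist1h2ae was 1.18 (KO-labelled) and 0.77 (WT), that of Hist1h3e 0.62 (KO-labelled) and 0.100 (WT), and that of Hist1h4d 0.60 (KO-labelled) and -0.94 (WT). In cluster 0 H1f0 was at 281 CPM in histone-rich and 76.7 CPM in other cells of the KO-labelled library, and at 316 CPM and 79.1 CPM in the WT library. Hist1h2ac was there at 343 CPM and 92.8 CPM in the KO-labelled library, and at 158 CPM and 68.3 CPM in the WT library.

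**Figure D3:**
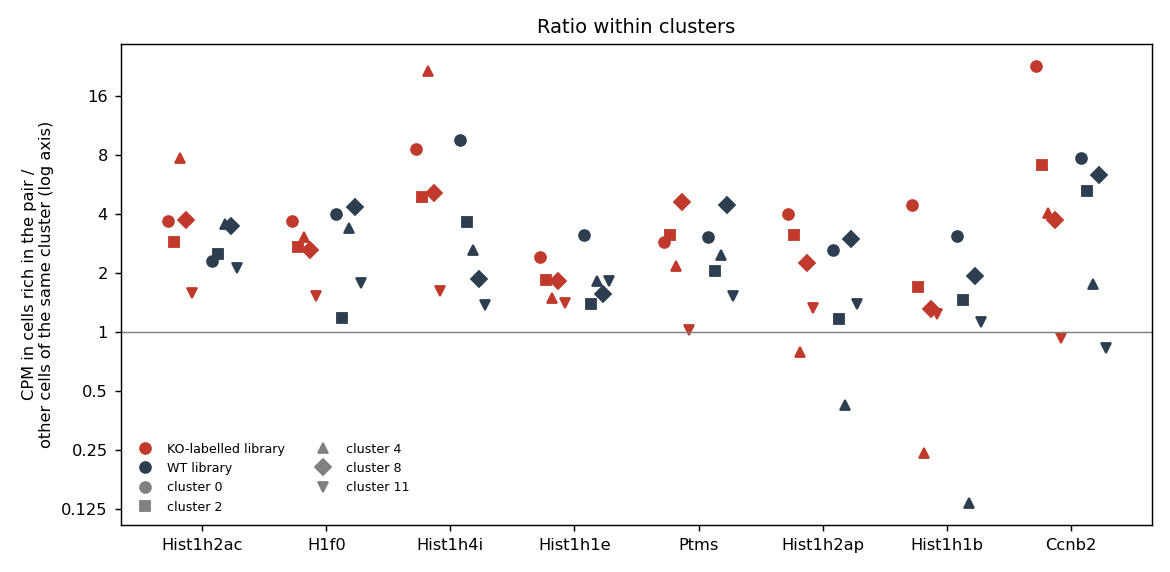
Ratio of CPM in histone-rich over other cells of the same cluster (y axis, log scale) for 8 genes, in clusters 0, 2, 4, 8 and 11 (symbols) of the KO-labelled (red) and WT (dark) libraries. Hist1h2ac, H1f0, Hist1h4i, Hist1h1e and Ptms lie above 1 at all 10 points, and Hist1h2ap and Hist1h1b lie below 1 only in cluster 4.

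A like split appeared along the level of the pair in cells under the mitotic limit. H1f0 in the KO-labelled library was at 66.4, 131, 201, 262 and 340 CPM over pair levels of 0 to 2, 2 to 5, 5 to 10, 10 to 15 and 15 to 25 UMIs per 10000, and in the WT library at 55.8, 104, 151, 185 and 270 CPM. Hist1h2ac was at 61.6, 118, 162, 224 and 347 CPM in the KO-labelled library and at 45.6, 82.3, 104, 169 and 224 CPM in the WT library. Both thus increased step by step, below the threshold too. The levels are those of the pair that the rule used, so the steps are a description and no test. Depth differed between them as well. The median was 8553 UMIs at 0 to 2 and 6057 UMIs at 15 to 25 in the KO-labelled library, and 9014 and 5679 UMIs in the WT library. In cells at 25 or more, 48 KO-labelled and 11 WT cells, H1f0 was at 234 CPM in the KO-labelled and 342 CPM in the WT library, and Hist1h2ac at 471 CPM in the KO-labelled and 85.4 CPM in the WT library.

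The S phase histones peaked at low levels of the pair instead, with the same differences in depth between levels. Hist1h2ap was highest at 2 to 5 per 10000, with 2236 CPM in the KO-labelled and 1791 CPM in the WT library, and was at 496 CPM in the KO-labelled and 301 CPM in the WT library at 15 to 25. Hist1h1b and Top2a, the DNA topoisomerase of dividing cells, were highest in that same range in both libraries. Mcm2, a subunit of the replicative helicase, was highest at 0 to 2, with 90.4 CPM in the KO-labelled and 127 CPM in the WT library. At 15 to 25 it was at 31.7 CPM in the KO-labelled and 64.5 CPM in the WT library.

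**Figure D4:**
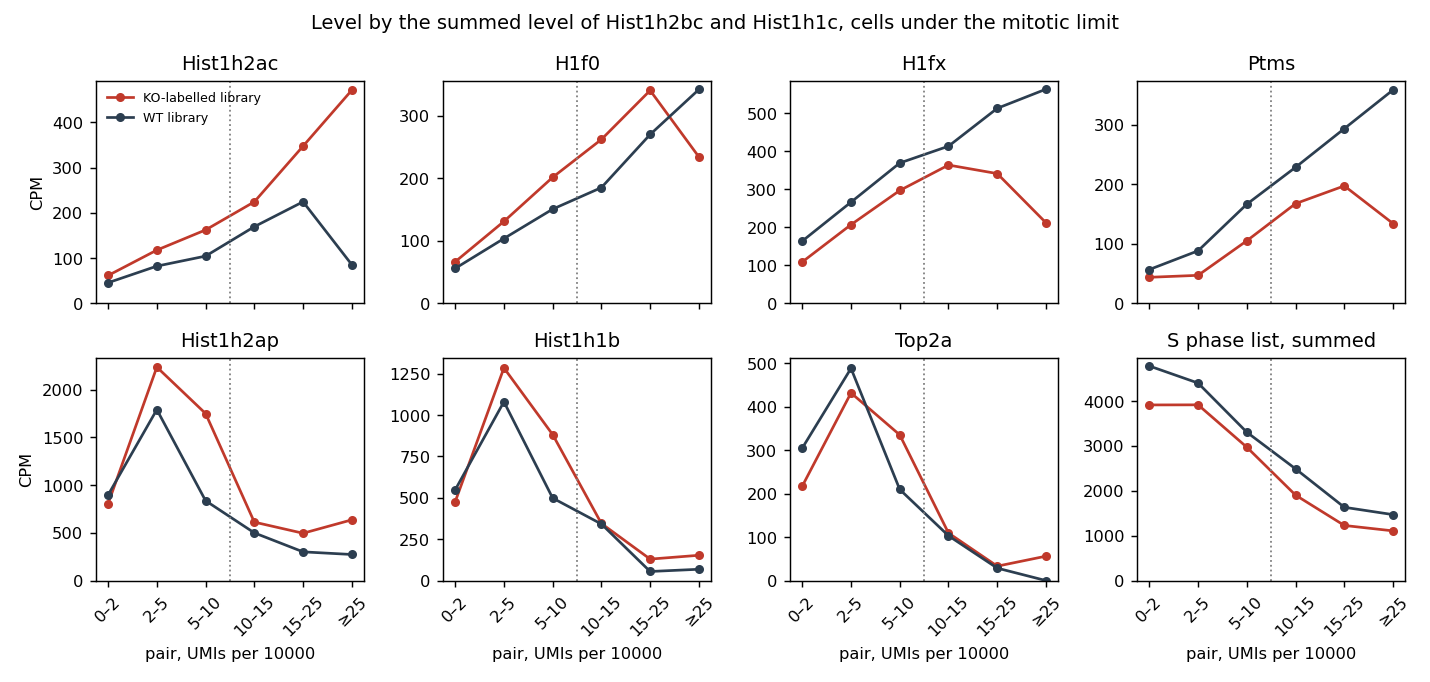
Summed CPM (y axes, from 0) of 7 genes and of the S phase list by the level of Hist1h2bc and Hist1h1c together (x axis, UMIs per 10000), in cells under the mitotic limit of the KO-labelled (red) and WT (dark) libraries. The dotted line marks the threshold of 10. Hist1h2ac, H1f0 and Ptms rise over the first 5 levels in both libraries, and Hist1h2ap, Hist1h1b and Top2a are highest at 2 to 5.

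Genes of DNA replication were low in the histone-rich cells. Of 41 measured S phase genes 33 were at least 1.5-fold lower in both libraries and 0 higher, with a median log2 ratio of -1.28 in the KO-labelled and -1.03 in the WT library. Exo1, a DNA repair exonuclease, was at 1.76 CPM in histone-rich and 20.5 CPM in other cells of the KO-labelled library and at 2.53 CPM and 27.2 CPM in the WT library, ratios of 0.0862 (0.0235 to 0.221) in the KO-labelled and 0.0929 (0.0191 to 0.272) in the WT library. Cdc45, which helps form the replicative helicase, had ratios of 0.118 (KO-labelled) and 0.141 (WT). With each cell thinned to 3000 UMIs, the list summed to a median of 3 UMIs per histone-rich cell and 7 per other cell in the KO-labelled library, and 5 and 10 in the WT library. Among cells of 4000 to 7000 UMIs the median log2 ratio was -0.32 (KO-labelled) and -0.50 (WT), and with equal cluster weights -0.16 (KO-labelled) and -0.28 (WT), in the same direction and smaller.

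Histone supply genes of S phase were low as well. Of 11 histone chaperones 5 were at least 1.5-fold lower in both libraries and 0 higher, among them Chaf1a (ratios KO-labelled 0.299, WT 0.315), a subunit of the assembly factor that loads histones behind the fork, and Asf1b (KO-labelled 0.307, WT 0.335), which hands H3 and H4 to it. The chaperone median log2 ratio was -0.69 (KO-labelled) and -0.63 (WT), but -0.019 (KO-labelled) and -0.16 (WT) among cells of 4000 to 7000 UMIs. Of 12 genes of histone mRNA processing 8 were lower in both libraries. At least 1.5-fold lower in both were 2 of them, Ncbp1, which binds the cap, and Slbp, the stem loop binding protein, at 0.559 (KO-labelled) and 0.651 (WT). The variant H2afx, an H2A marked at DNA breaks, had ratios of 0.302 (KO-labelled) and 0.276 (WT), but log2 ratios of 0.16 (KO-labelled) and 0.0073 (WT) with equal cluster weights. H3f3b, which encodes the replication-independent H3.3, was at 3508 CPM in histone-rich and 2212 CPM in other cells of the KO-labelled library and at 2661 CPM and 1910 CPM in the WT library, ratios of 1.59 (KO-labelled) and 1.39 (WT).

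Genes of G2 and M phase were also low against all other cells, but the rule itself limited 5 genes of mitosis. Of 43 other measured members 35 were at least 1.5-fold lower in both libraries and 0 were as far above, with medians of -1.32 (KO-labelled) and -1.47 (WT). Anln, which encodes an actin-binding protein of cytokinesis, had ratios of 0.0947 (KO-labelled) and 0.110 (WT), and the kinase gene Cdk1 0.146 (KO-labelled) and 0.171 (WT). Outside the list, Prc1, which bundles the spindle midzone, was at 0.118 (KO-labelled) and 0.123 (WT). Against other cells that were also under the mitotic limit the medians were -0.55 (KO-labelled) and -0.61 (WT), with equal cluster weights -0.40 (KO-labelled) and -0.47 (WT), and among cells of 4000 to 7000 UMIs 0.22 (KO-labelled) and 0.02 (WT). Within clusters the summed list was at 0.619 to 1.39, above 1 in 6 of 10 values and below it in clusters 4 and 11. The low level against all other cells was therefore not seen at like depth.

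Ccnb2, a mitotic cyclin outside the rule that was picked after its values were seen, went the other way. It stood at 228.5 CPM in histone-rich and 138 CPM in other cells of the KO-labelled library and at 179 CPM and 132 CPM in the WT library, ratios of 1.66 (1.52 to 1.81) in the KO-labelled and 1.35 (1.18 to 1.55) in the WT library. In the stem cell-like cluster 0 it was at 130 CPM and 5.72 CPM in the KO-labelled library, and at 56.5 CPM and 7.32 CPM in the WT library. Within clusters it was above 1 in 8 of 10 values, and both below 1 were those of cluster 11, which it leads. Among cells of 4000 to 7000 UMIs its log2 ratio was 2.24 (KO-labelled) and 1.94 (WT). Other leading genes of cluster 11, also picked after their values were seen, varied within clusters. Cenpa and Knstrn were above 1 in 8 of 10 values, Cdkn3 in 7 and Cdc20 in 5. Prc1 was above 1 in 3 of 10 and Anln in 1. Summed over the histone-rich cells, S phase transcripts were thus low and Ccnb2 was raised against all other kept cells. Whether the same single cells had both was not tested.

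The 12 named genes with the highest ratios, among them Hist1h2ac and H1f0, were between 1.92-fold and 5.63-fold higher in the KO-labelled and between 1.92-fold and 3.77-fold higher in the WT library. Ptms, which encodes parathymosin, an acidic nuclear protein that binds linker histones, was at 172 CPM in histone-rich and 59.9 CPM in other cells of the KO-labelled library and at 258 CPM and 81.3 CPM in the WT library, ratios of 2.87 (2.59 to 3.18) in the KO-labelled and 3.17 (2.82 to 3.56) in the WT library. It was above 1 in 10 of 10 cluster values (1.03 to 4.62) and is a leading gene of cluster 11. Tcp11l2 was at 2.86 (KO-labelled) and 3.77 (WT), and F11r, the junctional adhesion molecule also found on platelets, at 3.34 (KO-labelled) and 2.15 (WT). Gadd45g, a stress-induced growth arrest gene, was at 221 CPM in histone-rich and 39.2 CPM in other cells of the KO-labelled library and at 27.8 CPM and 13.3 CPM in the WT library. In the KO-labelled library 5 histone-rich cells held 60.4% of its UMIs, and its log2 ratio of 2.49 there was 0.51 among cells of 4000 to 7000 UMIs.

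The remaining higher genes had varied roles. Bbc3, which encodes the cell death protein PUMA, was at ratios of 2.69 (KO-labelled) and 1.92 (WT), the nuclear non-coding RNA Neat1 at 2.24 (KO-labelled) and 1.92 (WT), and the interferon-inducible Ifi27l2a at 2.29 (KO-labelled) and 2.79 (WT). Cnrip1 was at 2.30 (KO-labelled) and 2.19 (WT), Ypel5 at 1.92 (KO-labelled) and 2.44 (WT) and Abhd18 at 1.95 (KO-labelled) and 2.08 (WT). Among cells of 4000 to 7000 UMIs Abhd18 in the KO-labelled library and Bbc3 in the WT library were on the other side of 1.

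The 12 lowest were led by Igkc, an immunoglobulin light chain gene that was at 18.1 CPM in histone-rich and 852 CPM in other cells of the KO-labelled library and at 42.2 CPM and 1485 CPM in the WT library. A small immunoglobulin-led cluster with 0 histone-rich cells is among the other cells, and with equal weights for clusters 0, 2 and 11 the log2 ratio of Igkc was 0.079 (KO-labelled) and 0.10 (WT). The other 11 are genes of replication and division, with ratios of 0.0862 to 0.162 in the KO-labelled and 0.0929 to 0.155 in the WT library. Among them were Exo1, Cdc45, Anln, Prc1, Pbk, Ncaph, Sgo2a, Ccnf, Sgo1 and Aunip. Ncaph encodes a condensin subunit, and Sgo1 and Sgo2a encode shugoshins, which guard sister chromatid cohesion.

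Genes linked to quiescence were higher against all other cells. All 17 measured members of that list were higher in both libraries, 6 of them at least 1.5-fold, with medians of 0.56 (KO-labelled) and 0.50 (WT). Txnip, an inhibitor of thioredoxin that restrains glucose uptake, was at 464 CPM in histone-rich and 267 CPM in other cells of the KO-labelled library and at 335 CPM and 169 CPM in the WT library. Btg2, an antiproliferative gene, had ratios of 1.55 (KO-labelled) and 1.85 (WT). Of 10 immediate early genes 3 were at least 1.5-fold higher in both libraries, Ier5, Junb and Zfp36. Among cells of 4000 to 7000 UMIs the quiescence medians were -0.07 (KO-labelled) and 0.03 (WT) and the immediate early medians -0.26 (KO-labelled) and -0.28 (WT), so neither list was higher against cells of like depth. Within clusters the summed quiescence list was at 0.9995 to 1.36. The CDK inhibitor Cdkn1b had ratios of 1.56 (KO-labelled) and 1.43 (WT).

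Stem cell genes were a little higher against all other cells, and lineage genes were mixed. Of 10 measured stem cell genes 1 was at least 1.5-fold higher in both libraries, Hlf, a transcription factor of stem cells, at 1.91 (KO-labelled) and 1.87 (WT), but with a log2 ratio of -1.34 in the WT library under a stricter cell filter. The list median was 0.42 in each library, but -0.27 (KO-labelled) and -0.45 (WT) among cells of 4000 to 7000 UMIs. Gata2, a transcription factor of stem and progenitor cells, was at 1.61 (KO-labelled) and 1.77 (WT). Of 14 megakaryocyte genes 10 were higher in both libraries. At least 1.5-fold higher in both were 2 of them, the tetraspanin Cd9 (KO-labelled 3.21, WT 1.61) and the thrombin receptor F2r (KO-labelled 1.70, WT 2.02). The megakaryocyte median was 1.04 in the KO-labelled and 0.14 in the WT library, or 0.071 (KO-labelled) and -0.32 (WT) with equal cluster weights. Of 13 erythroid genes 10 were lower in both libraries and 6 at least 1.5-fold lower, such as the carbonic anhydrase Car1 (KO-labelled 0.278, WT 0.257). Of 9 granulocyte-monocyte progenitor genes 8 were lower in both and 7 at least 1.5-fold lower, such as the elastase Elane (KO-labelled 0.347, WT 0.0312). With equal cluster weights the log2 ratios of Car1 were 0.076 (KO-labelled) and 0.29 (WT) and that of Elane in the WT library 0.31. The histone-rich cells came from several cell classes, so these medians mix them.

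Markers of cell types outside the sort were checked in the histone-rich cells, and their part in the results was not tested. The T and NK cell list of 10 genes summed to 77.6 CPM in histone-rich and 146 CPM in other cells of the KO-labelled library and to 182 CPM and 279 CPM in the WT library, of which Nkg7 alone gave 77.2 CPM in the KO-labelled and 180 CPM in the WT histone-rich cells, with Cd3e, Cd3g, Cd4, Cd8a, Trac and Ncr1 at 0. The B cell list of 9 summed to 50.3 CPM and 40.5 CPM in the KO-labelled library and to 93.6 CPM and 38.9 CPM in the WT library, with Igll1 and Ms4a1 at 0. None of the T and B cell genes named at 0 was thus detected, with a limit of 3 counts among 2266958 UMIs in the KO-labelled and 1185690 UMIs in the WT histone-rich cells. The macrophage list of 7 summed to 9.26 CPM in histone-rich and 13.4 CPM in other cells of the KO-labelled library and to 28.7 CPM and 17.4 CPM in the WT library. The stromal and endothelial list of 7 summed to 51.6 CPM and 33.1 CPM in the KO-labelled and to 46.4 CPM and 32.2 CPM in the WT library, with Cdh5 at 0. The neutrophil list of 12 summed to 589 CPM and 755 CPM in the KO-labelled library and to 10.1 CPM and 127 CPM in the WT library, with Ltf, Fcnb and Ly6g at 0. The monocyte and dendritic cell list of 12 summed to 704 CPM and 976 CPM in the KO-labelled and to 465 CPM and 837 CPM in the WT library, with Siglech at 0. The mast cell and basophil list of 11, which holds Kit, summed to 389 CPM and 334 CPM in the KO-labelled and to 1018 CPM and 451 CPM in the WT library, with Tpsb2 and Mcpt4 at 0. The lymphoid list of 12 summed to 507 CPM and 529 CPM in the KO-labelled and to 560 CPM and 732 CPM in the WT library, with Rag1, Rag2 and Ccr9 at 0, and the eosinophil list of 6 to 0.882 CPM and 9.25 CPM in the KO-labelled and to 5.06 CPM and 51.5 CPM in the WT library.

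Inside the histone-rich cells, the KO-labelled library was then set against the WT library over 3054 genes at 50 CPM or more in either. Of these 59 (1.93%) were 2-fold or more above the WT library in the KO-labelled one, and 20 (0.655%) were as far below it, with a median log2 ratio of -0.03. Xist is among the higher genes and the Y-linked Eif2s3y among the lower. The rule genes themselves were at ratios of 1.15 for Hist1h2bc and 1.39 for Hist1h1c. Hist1h2ac was higher in the KO-labelled library at 1.61 (1.38 to 1.88) and H1f0 at 1.27 (1.10 to 1.47), while H1fx was lower at 0.736 (0.658 to 0.823). By the levels given above, the other kept cells of the libraries differed in the same direction for each of these genes. All 10 Hist-named genes at the floor were higher, with a median log2 ratio of 0.52 and 1 past 2-fold, Hist1h4h, at 120 CPM in the KO-labelled and 46.4 CPM in the WT library. Over all genes 1395 of 3054 were higher. All Hist-named genes, the rule genes among them, summed to 4641 CPM in the other kept cells of the KO-labelled and 4053 CPM in those of the WT library. In male cells the list median was 0.02 and the log2 ratio of Hist1h4h -0.06, and under a stricter cell filter the list median was -0.09.

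Much of the difference rested on a few cells. For 23 of the 59 higher genes the 5 richest histone-rich cells held over 50% of the UMIs, and 14 of the 59 had a UMI in under 10% of the cells. All 366 UMIs of Retnlg, a neutrophil gene, came from 2 KO-labelled cells. The 5 richest KO-labelled cells held 99.0% of the UMIs of the platelet chemokine Ppbp, 97.0% of the haemoglobin gene Hbb-bs, 95.2% of S100a9 and 93.5% of S100a8, both calprotectin genes of neutrophils, and 93.7% of Elane. Among the 20 lower genes 2 were so concentrated, the basophil proteases Mcpt8 and Prss34, with 99.0% and 98.6% of UMIs in 5 WT cells.

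**Figure D5:**
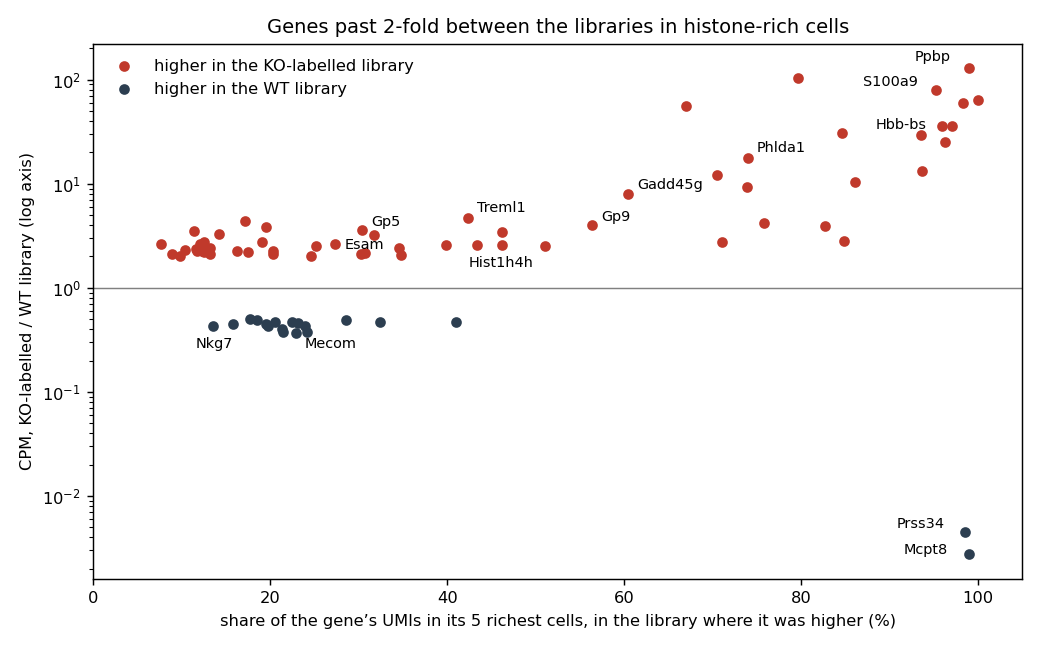
Ratio of CPM in histone-rich cells, KO-labelled over WT library (y axis, log scale), against the share of the gene's UMIs in its 5 richest cells of the library where it was higher (x axis, %), for genes past 2-fold, without Xist and Eif2s3y. Counts of 0 were replaced by 3. The largest ratios, such as Ppbp, S100a9 and Hbb-bs, lie at the right, with 99.0%, 95.2% and 97.0% of UMIs in 5 cells.

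The 12 named genes with the highest ratios, taken from genes with a UMI in 10% or more of the histone-rich KO-labelled cells and without haemoglobin and sex-linked genes, lay between 3.22 and 17.8, and platelet receptor genes were 3 of them. Treml1, a receptor of platelet granules, was at 270 CPM in the KO-labelled and 57.4 CPM in the WT library, a ratio of 4.71 (3.66 to 6.14), against 107 CPM in the other kept cells of the KO-labelled and 47.1 CPM in those of the WT library. Gp5 and Gp9, subunits of the platelet receptor for von Willebrand factor, were at ratios of 3.61 (2.83 to 4.67) and 4.01 (2.92 to 5.65). The 5 richest KO-labelled cells held 42.3% of the UMIs of Treml1, 30.3% of Gp5 and 56.4% of Gp9. The megakaryocyte list had 6 of 15 measured members past 2-fold on the higher side and 0 on the lower, with a median log2 ratio of 0.94, or 0.55 with equal cluster weights and 0.30 in male cells. Pf4, the platelet factor gene, was at 1398 CPM in the KO-labelled and 1244 CPM in the WT library. The 5 richest cells held 62.9% of its UMIs in the KO-labelled and 47.1% in the WT library, and its log2 ratio lay between -0.99 and 1.73 over the alternatives, so its direction was not settled.

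The others of the 12 varied in how far they rested on few cells. Gadd45g was at 221 CPM in the KO-labelled and 27.8 CPM in the WT library (7.92, 5.57 to 11.6), with 60.4% of its UMIs in 5 cells, and the ratio was lower among cells of 4000 to 7000 UMIs, where its log2 value was 1.01 in place of 2.99, and 1.58 with equal cluster weights. Phlda1, a growth factor-induced gene, was at 17.8 with 73.9% of UMIs in 5 cells. Tpm4, a non-muscle tropomyosin, was at 4.23 with 75.7% in 5 cells, and Rgs10, a regulator of G protein signalling, at 3.46 with 46.2%. Mpo, the myeloperoxidase gene, was at 3.96, with 82.7% in 5 cells, and its log2 ratio turned to -0.94 among cells of 4000 to 7000 UMIs. Tespa1 was at 3.50, Otos at 3.29 and Tmem158 at 3.22, and the 5 richest cells held less of their UMIs, 11.4% for Tespa1, 14.2% for Otos and 31.7% for Tmem158. The log2 ratio of Otos in histone-rich over other cells lay between -0.40 and 0.11 (KO-labelled) and between -0.54 and 0.04 (WT) over the alternatives. The libraries thus differed in Otos in the other kept cells too. For Tespa1 that ratio lay between -0.08 and 0.58 (KO-labelled) and between -0.27 and 1.31 (WT). In male cells, 27 KO-labelled and 114 WT, the log2 ratio of Tpm4 was -0.00193.

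The 12 named genes with the lowest ratios lay between 0.365 and 0.466. Mecom, a transcription factor needed by stem cells, was at 25.6 CPM in the KO-labelled and 70.0 CPM in the WT library (0.365, 0.257 to 0.517), against 21.7 CPM in the other kept cells of the KO-labelled and 58.9 CPM in those of the WT library. Bcl2, the cell death inhibitor, was at 48.5 CPM in the KO-labelled and 107 CPM in the WT library (0.453, 0.348 to 0.589), and Mcm2 at 26.9 CPM in the KO-labelled and 70.8 CPM in the WT library (0.380, 0.269 to 0.534). Ifitm1, an interferon-induced membrane protein gene and stem cell marker, was at 0.461. The other kept cells of the KO-labelled library were below those of the WT library as well, at 49.4 CPM against 84.8 CPM for Bcl2, 75.6 CPM against 101 CPM for Mcm2 and 114 CPM against 258 CPM for Ifitm1. Also low were Aldh1a1, a retinal dehydrogenase (0.379, but a log2 ratio of 0.03 in male cells), Tob2, an antiproliferative gene (0.403), Adgrl2 (0.427), Tnfaip2 (0.427), Nkg7 (0.428), the fatty acid carrier Fabp5 (0.446), Ppic (0.464) and C1galt1 (0.466).

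Cell cycle lists differed between the libraries in part. All 15 measured S phase genes were lower in the histone-rich cells of the KO-labelled library, with a median log2 ratio of -0.42 and 1 of them, Mcm2, past 2-fold. The median was -0.82 in male cells and -0.40 with equal cluster weights. Over all genes 1659 of 3054 were lower. The S phase list summed to 1584 CPM (KO-labelled) and 2136 CPM (WT) in histone-rich cells. In the other kept cells it was lower in the KO-labelled library too, at 3598 CPM against 4136 CPM. Of 22 G2 and M phase genes 14 were higher and 8 lower, with a median of 0.05 and 0 past 2-fold. All 8 immediate early genes were higher, with a median of 0.29 and 1 past 2-fold, Fosb (2.74), beside 1395 of 3054 genes over all. That list summed to 1338 CPM in the other kept cells of the KO-labelled and 1019 CPM in those of the WT library. The 7 stem cell genes had a median of -0.23, with Esam, an adhesion molecule of stem cells and platelets, 2.64-fold higher and Mecom and Ifitm1 past 2-fold lower.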

How the data were processed

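Sorted cells, about 10000 per library per the labels, were profiled with the 10x 3′ v2 kit, per the labels' protocols. The deposited matrices hold UMI counts per gene and cell. Per the submitters' processing notes, Cell Ranger 2.1.1 and mm10 were used. The matrix headers name software version 3.1.0 instead. The members and gene lists (35) were chosen with earlier results of these data known, and the split by 3′ end and the alternatives for cells of 4000 to 7000 UMIs and without clusters 9 and 12 to 17 were chosen after seeing the data.

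UMIs were summed over histone-rich and other cells of each library and scaled to CPM, with floors of 20 CPM (histone-rich against other cells) and 50 CPM (KO-labelled against WT) and a count of 0 set to 3. The 7 genes of the rule were left out of counts and medians. Shares have Clopper-Pearson intervals and ratios exact conditional binomial intervals, both at 95%. Genes are named by rule. The rule takes the 12 highest and 12 lowest ratios of each comparison among genes detected in 10% or more of the cells on the higher side. Haemoglobin genes, unnamed genes and those of ribosomal proteins or mitochondrial DNA were left out of these. So were Xist, Tsix and the Y-linked Ddx3y, Eif2s3y, Kdm5d and Uty, while other X-linked genes stayed in. It also takes all linker histones, the 8 highest Hist-named genes and up to 4 members of each list with the largest ratios. Ccnb2, Cenpa, Knstrn, Cdkn3, Cdc20, Pf4, Hist1h2be, Hist1h3c and Hist1h2ab were picked after their values were seen. So were the marker genes and those named for their concentration in few cells. Cells were clustered on 2000 variable genes, 30 components and 20 neighbours (Leiden, resolution 0.8; scanpy 1.11.5, leidenalg 0.10.2). Thinned values use 3000 UMIs per cell and leave out 13 histone-rich and 78 other KO-labelled cells and 7 and 148 WT cells that were shallower. Doublets were not removed, and an alternative leaves out the 5% deepest cells. Other tools were Python 3.11.15, numpy 2.4.6, scipy 1.17.1, pandas 2.3.3, matplotlib 3.10.9, R 4.3.3 and edgeR 4.0.16, used for TMM factors only. The summing and ratios were tested on simulated data. A few genes that the rule names are not reported here.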

Additional observations from a re-analysis of the deposited data

How the results depend on the processing

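Ratios are of histone-rich over other cells unless stated, and KO and WT name the KO-labelled and WT libraries. The share of histone-rich cells (KO 3.06%, WT 1.96%) was KO 2.48% and WT 1.12% under a stricter cell filter, KO 1.48% and WT 0.866% at a pair threshold of 15, KO 5.08% and WT 3.63% at a threshold of 7, KO 4.81% and WT 3.54% after thinning to 3000 UMIs, and KO 6.76% and WT 5.24% among cells of 4000 to 7000 UMIs. The share was higher in the KO-labelled library under each of these.

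Counts of genes moved with depth, weighting and floor. Genes at least 1.5-fold higher (133) numbered 241 at threshold 15, 65 at threshold 7, 24 after thinning, 88 without the 5% deepest cells, 27 with equal weights for clusters 0, 2 and 11, 88 with TMM scaling, 222 with totals free of ribosomal and mitochondrial genes, 311 at a floor of 5 CPM, 28 at 100 CPM, 3673 with no floor, 10 at 2-fold and 54 among cells of 4000 to 7000 UMIs. Genes at least 1.5-fold lower (435) numbered 286 at threshold 7, 162 after thinning, 63 with equal weights, 729 at 5 CPM, 108 at 100 CPM, 898 with no floor, 192 at 2-fold and 150 among cells of 4000 to 7000 UMIs. Genes at least 2-fold higher in the KO-labelled library (59) numbered 107 under the stricter filter, 130 at threshold 15, 128 in male cells, 31 with equal weights, 438 at 5 CPM, 34 at 100 CPM, 724 with no floor and 157 at 1.5-fold. Genes at least 2-fold lower (20) numbered 53 under the stricter filter, 55 at threshold 15, 176 in male cells, 31 by the mean of per-cell CPM, 52 with totals free of ribosomal and mitochondrial genes, 569 at 5 CPM, 7 at 100 CPM, 761 with no floor, 111 at 1.5-fold and 33 among cells of 4000 to 7000 UMIs.

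Of 4466 values of single genes and list medians under alternatives (337 results), 3232 were counted as within a set margin, not given here. Beyond it in size were 1142, and 92 changed sign from a main value past 1.5-fold (2-fold for KO-labelled over WT). Sign changes of smaller main values are not among the 92, and those listed next are. Among cells of 4000 to 7000 UMIs, the quiescence median (KO 0.56 to -0.07) is one left out. So is the stem cell median there (KO 0.42 to -0.27, WT 0.42 to -0.45). The causes were not tested. On the log2 scale, among cells of 4000 to 7000 UMIs the sign changed for the medians of G2 and M phase (KO 0.22, WT 0.020), Hist-named genes (KO 1.11, WT 0.78), short-ended histones (KO 0.69, WT 0.61) and granulocyte-monocyte genes (WT 0.23), and for Hist1h1a (KO 0.35, WT 0.61), Hist1h1b (KO 0.35), Hist1h2ap (KO 0.9995, WT 0.27), Hist1h2ae (KO 1.08, WT 0.18), Hist1h3e (KO 0.50, WT 0.085), Hist1h4d (KO 0.31), Ncbp1 (KO 0.019), Aunip (KO 0.25), Txnip (KO -0.093), Btg2 (KO -0.13), Zfp36 (KO -0.26), Junb (KO -0.29), Abhd18 (KO -0.27), Bbc3 (WT -0.089), Mpo (WT 0.73) and S100a9 (WT 0.022). Of the KO-labelled over WT ratios there, the erythroid median was -0.18, the granulocyte-monocyte median -0.94, Mpo -0.94 and Elane -0.65. With equal cluster weights it changed for the medians of Hist-named genes (KO 1.15, WT 0.94), short-ended histones (KO 1.02, WT 0.69) and erythroid genes (WT 0.17), and for Hist1h1a (KO 1.12, WT 0.81), Hist1h1b (KO 0.88, WT 0.58), Hist1h2ap (KO 1.19, WT 0.56), Hist1h2ae (KO 1.18, WT 0.77), Hist1h2ab (KO 1.73, WT 0.32), Hist1h3c (KO 0.47, WT 1.58), Hist1h3e (KO 0.62, WT 0.100), Hist1h4d (KO 0.60), H2afx (KO 0.16, WT 0.0073), E2f1 (WT 0.14), Cdk4 (WT 0.038), Mycn (WT -0.10), Zfp36 (KO -0.038), Junb (KO -0.18), Gp9 (KO -0.36), Gp5 (KO -0.094), Rgs10 (KO -0.062), Car1 (KO 0.076, WT 0.29), Mpo (WT 0.46), Elane (WT 0.31), Hbb-bs (WT 0.11) and Igkc (KO 0.079, WT 0.10). The KO-labelled over WT values with these weights were -0.076 for the erythroid and -0.084 for the granulocyte-monocyte median, -0.73 for Ppbp, -0.36 for Mpo and -0.036 for Elane. In male cells the changes were Btg2 (KO -0.021), Cnrip1 (WT -0.034), Mpo (KO 0.29), Elane (KO 0.27) and the granulocyte-monocyte median (KO 0.17), with KO-labelled over WT values of -0.55 for the erythroid median, -0.061 for Hist1h4h, -0.0019 for Tpm4 and 0.035 for Aldh1a1. The stricter filter, which left 216 KO-labelled and 56 WT histone-rich cells, changed Zfp36 (WT -0.88) and Hlf (WT -1.34). Without clusters 9 and 12 to 17 the changes were Elane (KO 0.34, WT 0.70) and Igkc (KO 0.092), with KO-labelled over WT values of -0.065 for the erythroid median, -0.080 for the granulocyte-monocyte median and -0.26 for Elane. The KO-labelled over WT erythroid median was also -0.029 after thinning and -0.035 at threshold 15.

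No paired analysis was possible because each genotype has 1 library and the labels give no replicate numbers.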

Other observations

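Genes of ribosome production had lower medians in the histone-rich cells. Of 28 measured ribosome biogenesis genes 24 were lower than in other kept cells of both libraries, and 2 were at least 1.5-fold lower in both, Bop1, which processes the ribosomal RNA precursor, and Dkc1, which modifies it, beside 7.59% of all genes. The median log2 ratio was -0.61 in the KO-labelled and -0.38 in the WT library, and -0.32 (KO-labelled) and -0.18 (WT) among cells of 4000 to 7000 UMIs. Ncl, which encodes the nucleolar protein nucleolin, was at 738 CPM in histone-rich and 1282 CPM in other cells of the KO-labelled library, and at 997 CPM and 1494 CPM in the WT library. Ribosomal protein genes themselves were level, with 0 of 81 past 1.5-fold and medians of 0.01 (KO-labelled) and 0.09 (WT). Inside the histone-rich cells 17 of 20 ribosome biogenesis genes were lower in the KO-labelled than in the WT library, none past 2-fold, with a median of -0.46. Over all genes 1659 of 3054 were lower. The biogenesis list summed to 7067 CPM in the other kept cells of the KO-labelled and 7866 CPM in those of the WT library.

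Medians of heat shock, glycolysis and G1 genes were below 0 as well, with few genes past 1.5-fold. Of 7 heat shock genes 1 was at least 1.5-fold lower in both libraries, the mitochondrial chaperonin Hspd1 (ratios KO-labelled 0.553, WT 0.617), and the list medians were -0.44 (KO-labelled) and -0.40 (WT), or -0.10 (KO-labelled) and -0.0020 (WT) among cells of 4000 to 7000 UMIs. Hsp90aa1, the inducible HSP90 gene, was at 0.628 (KO-labelled) and 0.683 (WT). Of 12 glycolysis genes 1 was at least 1.5-fold lower, a share close to the 7.59% over all genes, the isomerase Tpi1 (KO-labelled 0.574, WT 0.643), with medians of -0.21 (KO-labelled) and -0.19 (WT). Of 14 genes of G1 control 3 were at least 1.5-fold lower, among them the cyclin-dependent kinase Cdk4 (KO-labelled 0.548, WT 0.646) and the S phase transcription factor E2f1 (KO-labelled 0.193, WT 0.568). At least 1.5-fold higher was 1, the transcription factor Mycn (KO-labelled 1.69, WT 1.73). With equal cluster weights the WT log2 ratios of Cdk4 (0.038), E2f1 (0.14) and Mycn (-0.10) were on the other side of 0.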
